A study of Mus musculus with 24 samples.

Results

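A set of 10 genes of tumour necrosis factor (TNF) and nuclear factor kappa B (NF-κB) signalling was followed through the first 72 h after status epilepticus (SE) in the hippocampal CA1 subfield of the mouse. They were the cytokine gene Tnf, its receptor genes Tnfrsf1a and Tnfrsf1b, the Rel family genes Nfkb1, Nfkb2, Rela and Relb, the genes Nfkbia and Bcl3 for proteins that bind Rel dimers, and the feedback gene Tnfaip3. The genes were found by symbol among the 18647 genes of the deposited count table, and all 10 were present and passed the filter on low counts, which left 18153 genes. The adult C57Bl/6N mice, at least 60 days old and at least 20 g in weight, all received 1 mg/kg scopolamine methyl nitrate, then 335 mg/kg pilocarpine (SE) or saline (Ctr), and later 4 mg/kg diazepam. Only mice in which pilocarpine had led to SE were used. CA1 was dissected by eye from slices, and its polyA RNA was sequenced at 5 times after SE (6, 12, 24, 36 or 72 h) and at 3 times in non-SE controls (12, 36 or 72 h). There were 3 libraries in each of these 8 groups and 24 altogether, and neither the labels nor the methods say whether each library came from 1 mouse, so that p-values measure the spread between these libraries, which may in part be technical.

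The libraries held between 2663936 and 30133731 counts (median 13521590). The smallest belonged to Ctr 72 h, whose replicates 1, 2 and 3 held 11680209, 5793721 and 2663936 counts. Levels are given as CPM (counts relative to library size after TMM scaling), and differences as log2 fold changes (log2FC) from 1 fit over all 24 libraries with edgeR's quasi-likelihood test. The fit held a term for 1 factor of unwanted variation (RUVr), whose largest values in both directions were in Ctr 72 h. A gene was called a differentially expressed gene (DEG) at a Benjamini-Hochberg adjusted p of at most 0.05 over all 18153 genes together with a minimum absolute log2FC, which was 0.66 between SE and Ctr or 2 control groups and 1 between times after SE. Differences of the SE effect between times (interactions) were called on the adjusted p alone. There was no control at 6 or 24 h, so SE 6 h and SE 24 h were set against the mean of the 3 control groups.

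The 5 markers of CA1 pyramidal cells were detected in every group, with a summed level of 947 ± 216 CPM (SD, n = 3) in Ctr 12 h, 1410 ± 46.9 in Ctr 36 h and 899 ± 121 in Ctr 72 h. After SE none of the 5 was called at 6 or 12 h, while 1 was lower at 24 h, 3 at 36 h and 2 at 72 h, among them Fibcd1 (log2FC -1.88, -3.28 and -1.45 in that order). Some libraries stood apart in markers of other tissue. The 10 markers of sensory ganglia summed to 1620 CPM in Ctr 72 h replicate 2, to 862 and 454 CPM in SE 72 h replicates 1 and 2, to 758 CPM in SE 36 h replicate 3, to 597 CPM in SE 12 h replicate 1 and to 302 CPM in SE 6 h replicate 3. In the other 18 libraries the sum lay between 4.03 and 63.4 CPM. The 5 markers of dentate granule cells summed to 235 CPM in SE 72 h replicate 1 and to between 92.3 and 110 CPM in Ctr 12 h replicate 3, SE 12 h replicates 1 and 3 and SE 36 h replicates 1 and 2. Of these 5 markers, 1 was lower at 24 h, 1 was higher at 36 h and 3 were higher at 72 h, among the latter Prox1 (3.03) and C1ql2 (4.0). Of the ganglion markers, 4 of 10 were called higher at 12 h, 1 at 36 h, 2 at 6 h and none at 24 or 72 h. The part of this tissue in the results was not tested. All counts of calls below were also made without the 6 libraries above 100 CPM of ganglion markers. They were made again without the 6 above 80 CPM of dentate markers. Where this changed a call of a member it is said with the gene. The first set left 1 library in SE 72 h, and the second left 1 library each in SE 12 h and SE 36 h. In those groups a changed call cannot be told apart from the loss of replicates.

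TNF is a cytokine that microglia and other immune cells release when tissue is injured or infected. It signals through a receptor found on most cells, encoded by Tnfrsf1a, and through another, encoded by Tnfrsf1b, that in the brain is made mainly by microglia. Bound receptor recruits adaptors and ubiquitin ligases that turn on the IκB kinase (IKK) complex. In resting cells IκB proteins such as the product of Nfkbia hold Rel dimers in the cytoplasm, and IKK marks them for destruction, after which the dimers enter the nucleus and bind κB sites in DNA. Nfkbia, Tnfaip3, Nfkb1, Nfkb2 and Relb are textbook NF-κB targets themselves, so the pathway makes its own brakes.

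Sequences next to the transcription start are shown because several of these genes are known targets of the factors they encode. RefSeq windows of the build GRCm38.p6, from 250 bases before to 50 bases after a start, held 11 starts of 8 of the 10 genes. There was no entry for Nfkb1 or Relb. The windows were searched on both strands for a κB-like word in 8 spellings, GGGANNCCCC, GGGANNCTCC, GGGANNTCCC, GGGANNTTCC, GGGGNNCCCC, GGGGNNCTCC, GGGGNNTCCC and GGGGNNTTCC. At least 1 of these words stood in 2581 of the 27025 genes with a window (9.55%) and in 4 of the 8 genes followed here, namely Nfkb2, Nfkbia, Bcl3 and Tnfaip3. The last 200 bases before the start are printed 5′ to 3′ on the gene's own strand for 4 genes with different courses after SE, with matches in capitals.
Nfkb2, chr19:46304537-46304736 (plus strand): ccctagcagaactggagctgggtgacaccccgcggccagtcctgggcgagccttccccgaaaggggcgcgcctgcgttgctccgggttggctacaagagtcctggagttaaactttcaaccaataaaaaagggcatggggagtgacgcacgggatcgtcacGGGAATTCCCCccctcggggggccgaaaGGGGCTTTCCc
Nfkbia, chr12:55492648-55492847 (minus strand): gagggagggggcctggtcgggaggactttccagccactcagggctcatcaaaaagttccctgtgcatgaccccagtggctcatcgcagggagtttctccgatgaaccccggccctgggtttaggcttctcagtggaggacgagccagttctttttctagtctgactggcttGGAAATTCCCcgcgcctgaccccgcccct
Tnfaip3, chr10:19015411-19015610 (minus strand): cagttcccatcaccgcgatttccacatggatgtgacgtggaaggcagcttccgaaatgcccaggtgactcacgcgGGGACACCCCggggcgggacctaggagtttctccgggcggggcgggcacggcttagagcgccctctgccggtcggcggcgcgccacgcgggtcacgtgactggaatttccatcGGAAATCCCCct
Tnf, chr17:35202008-35202207 (minus strand), with no match: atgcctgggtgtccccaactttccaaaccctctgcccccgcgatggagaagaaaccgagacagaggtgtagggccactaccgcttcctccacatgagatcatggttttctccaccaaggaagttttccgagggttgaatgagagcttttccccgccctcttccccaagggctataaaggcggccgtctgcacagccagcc
In the printed window of Nfkb2, the most upstream of its 3 starts, overlapping words began 39 and 38 bases before the start and a further word, GGGGCTTTCC, began 11 bases before it. In the windows of the other 2 starts, GGAATGTCCC began 236 bases before and GGGACTTTCC 11 bases after the second, and the same GGGACTTTCC lay 225 bases before the third. The word of Nfkbia, GGAAATTCCC, began 29 bases before the start. The printed window of Tnfaip3 held GGGACACCCC 125 bases and GGAAATCCCC 12 bases before the start, its other window held none, and the word of Bcl3, GGGAAGTCCC, began at base 3 after the start, outside the printed length. No word of these spellings was found in the windows of Tnf, Tnfrsf1a, Tnfrsf1b and Rela, which says nothing of sites elsewhere or of other spellings.

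At 12 h, 9 of the 10 genes were DEGs, all higher after SE, while 13.9% of all genes tested were called higher. The numbers were 5 of 10 at 36 h (12.7% of all genes), 6 of 10 at 72 h (15.2%), 7 of 10 at 6 h (15.8%) and 9 of 10 at 24 h (15%). No member was called lower in any of these comparisons, where 11.4% (12 h), 8.93% (36 h), 4.18% (72 h), 6.2% (6 h) and 9.22% (24 h) of all genes were. The median log2FC of the 10 genes at 12, 36, 72, 6 and 24 h was 1.35, 1.08, 1.60, 1.26 and 1.35, against 0.01, 0.00, 0.10, 0.06 and 0.04 over all genes in the same order. Tnf, Tnfrsf1a, Nfkb2 and Bcl3 were called in all 5 comparisons, Tnfrsf1b and Nfkb1 in 4, Nfkbia and Rela in 3, Relb in 2 and Tnfaip3 in none. All 3 SE libraries lay above all controls they were compared with in 9, 8, 6, 7 and 9 of the 10 genes in the same order of times, where this was true of 24.5%, 25.8%, 19.4%, 12.9% and 13.6% of all genes.

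**Figure D1:**
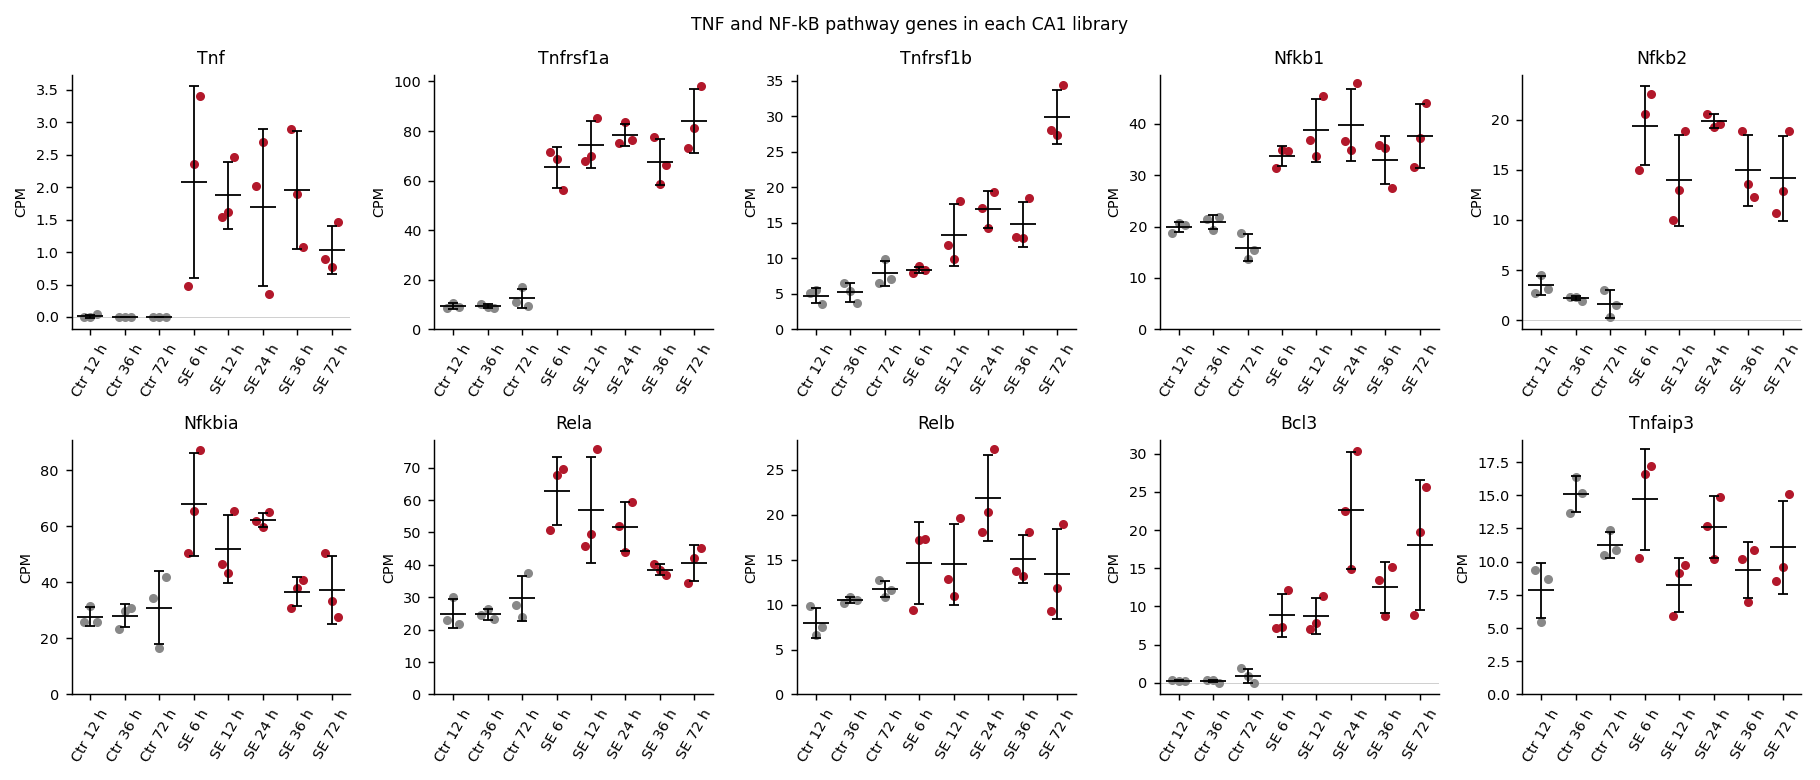
CPM of each of the 10 genes in each of the 24 libraries, by group and hours; points are libraries (grey Ctr, red SE), and bars are the mean and SD of the 3 libraries of a group. Tnfrsf1a, Nfkb1, Nfkb2, Bcl3 and Tnf lie above every control in all 15 SE libraries, and Tnfaip3 overlaps the controls.

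Tnf (ENSMUSG00000024401.15, chr17:35418357-35420983 on GRCm39, minus strand) was nearly undetected in controls and present in every SE library. In the 9 control libraries a single read was counted, in Ctr 12 h replicate 3, which gave 0.0387 CPM. The SE 6 h libraries held 6, 24 and 80 reads, or 0.479, 2.35 and 3.4 CPM. At 12 h the values were 1.54, 1.62 and 2.47 CPM, and at 24 h they were 2.02, 2.7 and 0.35 CPM. All of these lay above every control, although SE 6 h replicate 1 and SE 24 h replicate 3 were low within their groups. Values of 2.89, 1.89 and 1.08 CPM were found at 36 h and of 0.888, 0.763 and 1.46 CPM at 72 h. From summed counts, Tnf was 89.9-fold higher than in controls at 12 h, with an exact 95% interval of 15.8 to 3580 that covers counting error only. Against a floor of 3 counts over the group, since no control read was seen, it was at least 28.3-fold higher at 36 h and at least 7.52-fold higher at 72 h. Against all 9 controls it was 277-fold higher at 6 h (exact 95% interval 48.7 to 11000) and 215-fold higher at 24 h (37.5 to 8580).
Tnf was a DEG at each time point, with adjusted p of 0.000398 (12 h), 0.000276 (36 h), 0.00685 (72 h), 6.51e-06 (6 h) and 8.57e-06 (24 h) in edgeR's test. At 72 h the call was lost with limma-voom (log2FC 3.62, adjusted p = 0.0576). It was also lost without the libraries high in ganglion markers (7.47), which left 1 library in SE 72 h. Even in SE libraries its level was low, at 2.08 ± 1.48 CPM (SD, n = 3) where the mean was highest, at 6 h, and 1.04 ± 0.373 CPM where it was lowest, at 72 h. No step between consecutive SE time points was called, and the largest was a log2FC of -0.86 (s.e. 0.68) from 36 to 72 h. Because these are bulk tissue samples, more cells of a type and more RNA per cell cannot be told apart for this or any other gene described here.

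Tnfrsf1a (ENSMUSG00000030341.18, chr6:125325566-125339632, plus strand) encodes the widely expressed TNF receptor with a death domain, and it rose early and stayed high. Its level was 8.42, 10.6 and 8.89 CPM in Ctr 12 h and 68.0, 69.9 and 85.3 CPM in SE 12 h. At 36 h it was 10.1, 8.92 and 8.63 CPM in Ctr and 77.4, 58.7 and 66.2 CPM after SE. At 72 h the values were 10.9, 16.9 and 9.37 CPM in Ctr and 73.0, 81.3 and 98.3 CPM after SE. The lowest SE library therefore lay far above the highest control at each of these times. The SE 6 h libraries, with 71.6, 68.7 and 56.0 CPM, and the SE 24 h libraries, with 75.2, 83.7 and 76.3 CPM, were as high. The log2FC was 3.00 (s.e. 0.17) at 12 h, 2.87 (s.e. 0.17) at 36 h and 2.79 (s.e. 0.17) at 72 h, a fold of 7.98, 7.30 and 6.92, with adjusted p of 4.72e-10, 3.97e-10 and 9.28e-10 in edgeR's test. At 6 h it was already 2.68 (s.e. 0.12) and at 24 h 2.94 (s.e. 0.12). Over all alternatives the log2FC stayed between 2.47 and 3.24 in these 5 comparisons and every call held.

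Tnfrsf1b (ENSMUSG00000028599.11, chr4:144938938-144973477, minus strand), the gene of the receptor without a death domain, was first called at 12 h. In controls it measured 5.11, 5.46 and 3.48 CPM at 12 h, 6.47, 5.32 and 3.7 CPM at 36 h, and 6.5, 9.89 and 7.12 CPM at 72 h. The 3 SE 6 h libraries held 7.91, 8.82 and 8.28 CPM, within the range of the controls. Thus the gene was not called at 6 h (log2FC 0.55, s.e. 0.20, adjusted p = 0.0307, below the log2FC threshold in edgeR's test). It was called at 6 h when the controls of 72 h were left out (0.76) or Ctr 12 h alone was used (0.84). At 12 h the SE libraries had 11.8, 9.88 and 18.1 CPM, at 24 h 17.1, 14.2 and 19.3 CPM, and at 36 h 13, 12.9 and 18.4 CPM. At 72 h they had 28.0, 27.4 and 34.3 CPM, more than any other library. The log2FC was 1.51 (s.e. 0.25) at 12 h, 1.57 (s.e. 0.18) at 24 h, 1.51 (s.e. 0.24) at 36 h and 1.98 (s.e. 0.26) at 72 h, each called. The step from SE 6 h to SE 12 h was not called (0.66, s.e. 0.24, adjusted p = 0.112 in edgeR's test).
From SE 36 h to SE 72 h, Tnfrsf1b rose by a log2FC of 1.03 (s.e. 0.23, adjusted p = 0.00811 in edgeR's test), the only member called at this step, where 4.16% of all genes were called. The value lay close to the threshold of 1, and it fell below it with the ganglion score as covariate (0.99), with the compared groups only (0.98), and without SE 36 h replicate 1 or 2 (0.94 each) or SE 72 h replicate 3 (0.91). Without the libraries high in dentate markers, which left 1 library in SE 36 h, it was 0.75 and not called. No difference between the effects of SE on Tnfrsf1b at 72 and 12 h was called (difference in log2FC 0.47, s.e. 0.35, adjusted p = 0.358 in edgeR's test of the interaction). Markers of microglia had a different course at first. The summed level of the 9 microglia markers tested was 374 ± 13.6, 409 ± 29.0 and 368 ± 56.0 CPM in Ctr 12, 36 and 72 h (SD, n = 3), lower at 251 ± 8.34 CPM in SE 6 h and 301 ± 43.8 CPM in SE 12 h, and 555 ± 85.1, 695 ± 58.0 and 1690 ± 332 CPM in SE 24, 36 and 72 h. The part of microglia in the Tnfrsf1b result was not tested.

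Per kilobase of transcript, the ratio of Tnfrsf1a to Tnfrsf1b was 4.63 ± 1.04 in Ctr 12 h, 4.2 ± 0.936 in Ctr 36 h and 3.54 ± 0.491 in Ctr 72 h (SD, n = 3 each). The SE 6 h libraries had a ratio of 17.8 ± 2.59, those of SE 12 h 13.2 ± 2.68, those of SE 24 h 10.7 ± 2.29, those of SE 36 h 10.6 ± 2.7 and those of SE 72 h 6.35 ± 0.424. The mean ratio was thus highest at the earliest time point, and the lowest SE library, with 5.88 at 72 h, still lay above the highest control, with 5.77 at 12 h. SE 6 h and SE 72 h libraries did not overlap, and with 3 against 3 libraries the exact permutation test gave p = 0.1 (two-sided), the smallest value it can give.

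**Figure D2:**
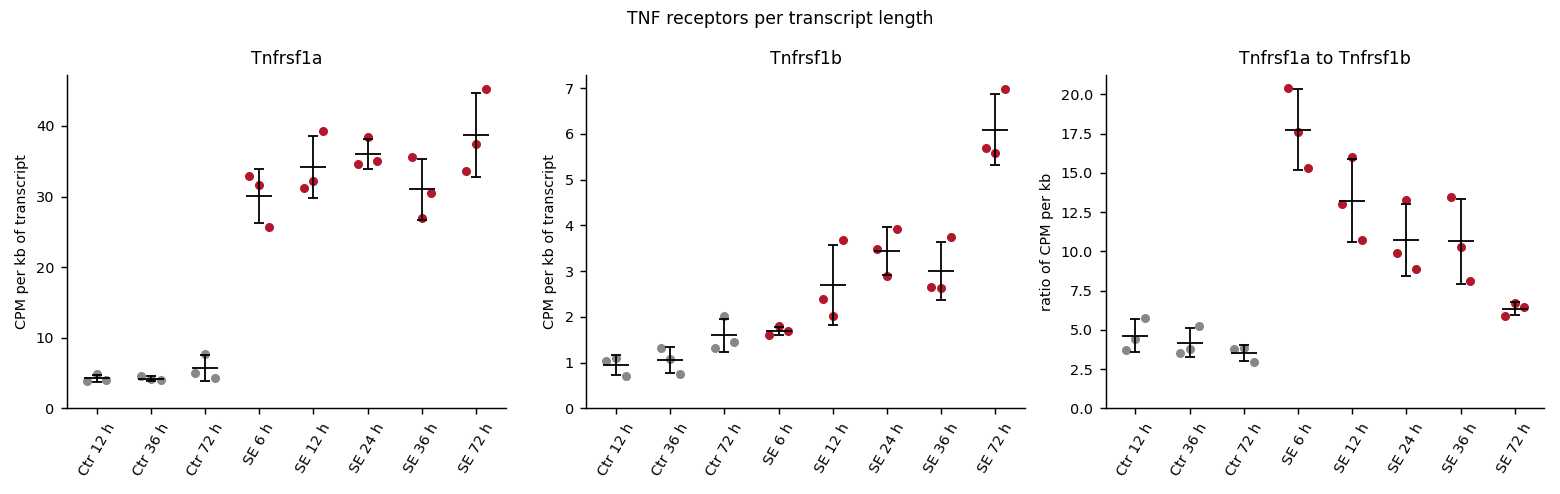
CPM per kilobase of transcript of Tnfrsf1a and Tnfrsf1b and the ratio of the 2, by group and hours; points are libraries (grey Ctr, red SE), and bars are the mean and SD of the 3 libraries of a group. Tnfrsf1a is near its full level at 6 h, Tnfrsf1b reaches its highest values at 72 h, and the ratio falls from 17.8 at 6 h to 6.35 at 72 h.

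Among the Rel family genes, Nfkb2 had the largest log2FC in all 5 comparisons. Nfkb2 (ENSMUSG00000025225.16, chr19:46292759-46303812, plus strand) encodes the precursor of the DNA-binding subunit of the non-canonical pathway. In Ctr 12 h it had 2.74, 4.56 and 3.13 CPM, against 10.0, 13 and 18.9 CPM in SE 12 h. The Ctr 36 h libraries had 2.3, 2.3 and 1.97 CPM and the SE 36 h libraries 18.9, 13.6 and 12.3 CPM. At 72 h there were 3.04, 0.341 and 1.5 CPM in Ctr, from 36, 2 and 4 counts, and 10.7, 12.9 and 18.9 CPM after SE. Every SE library thus exceeded every control, and so did those of 6 h (15, 20.6 and 22.6 CPM) and 24 h (20.6, 19.3 and 19.6 CPM). The log2FC was 1.97 (s.e. 0.23) at 12 h, 2.75 (s.e. 0.24) at 36 h and 3.39 (s.e. 0.29) at 72 h, with adjusted p of 2.16e-06, 5.00e-08 and 5.40e-08 in edgeR's test, and it was 3.18 (s.e. 0.18) at 6 h and 3.21 (s.e. 0.18) at 24 h.
The rise of this log2FC from 12 to 72 h was called as an interaction (1.42, s.e. 0.38, adjusted p = 0.0122), the only one called for a member, where 22.2% of all genes were called. Nfkb2 was also lower in Ctr 72 h than in Ctr 12 h (log2FC -1.40, s.e. 0.31, adjusted p = 0.0350 in edgeR's test), while its mean after SE was 14 ± 4.50 CPM at 12 h and 14.2 ± 4.25 CPM at 72 h (SD, n = 3). Without Ctr 72 h replicate 2, the library with 2 counts and the highest ganglion markers, the difference between controls was -0.43 (adjusted p = 0.682, in a range over the alternatives of 0.00322 to 0.735) and the interaction was 0.47 (adjusted p = 0.464, in a range of 0.00178 to 0.464), neither of them called. Both calls were also lost without all the libraries high in ganglion markers (-0.42 and 0.69), which left 1 library in SE 72 h. The first was also lost without those high in dentate markers (-1.41). The difference between controls was also lost without any 1 of the Ctr 12 h libraries (-1.53, -1.14 and -1.47), and the interaction without SE 72 h replicate 3 (1.13, adjusted p = 0.0538). Without Ctr 72 h replicate 1 they were larger, at -2.39 and 2.42. Because strand was ignored in counting, reads from the 24.47% of Nfkb2 exon length that overlaps Psd on the opposite strand cannot be assigned to either gene. A lncRNA gene also overlaps 13.68% of Nfkb2 exon length on the opposite strand. Psd, a gene for an exchange factor of neurons, was lower at 24 h (log2FC -0.76), 36 h (-1.38) and 72 h (-0.68). The adjusted p in edgeR's test was 0.000256, 3.36e-06 and 0.00434 in that order. At 6 h (-0.38) and 12 h (-0.60) Psd did not reach the log2FC threshold.

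Nfkb1 (ENSMUSG00000028163.18, chr3:135290264-135397742, minus strand), which encodes the DNA-binding partner of RelA, rose by less than Nfkb2 but in every SE library. Its values were 18.7, 20.7 and 20.3 CPM in Ctr 12 h, 21.4, 19.3 and 21.9 CPM in Ctr 36 h, and 18.7, 13.6 and 15.4 CPM in Ctr 72 h. After SE they were 31.5, 35.0 and 34.7 CPM at 6 h, 36.9, 33.8 and 45.5 CPM at 12 h, and 36.7, 35.0 and 47.9 CPM at 24 h. At 36 h the SE libraries had 35.9, 35.4 and 27.6 CPM, and at 72 h 31.7, 37.3 and 44.0 CPM. The lowest of these 15 values, 27.6 CPM, exceeded the highest control, 21.9 CPM. Nfkb1 was a DEG at 12 h (log2FC 0.95, s.e. 0.15), 72 h (1.23, s.e. 0.16), 6 h (0.84, s.e. 0.12) and 24 h (1.09, s.e. 0.11). At 36 h its log2FC was 0.66 (s.e. 0.15, adjusted p = 0.00184 in edgeR's test), just under the threshold before rounding, and 13 of 22 alternatives called it, among them that without the libraries high in ganglion markers (0.77). No difference between the SE effects on Nfkb1 at 36 and 12 h was called (-0.30, s.e. 0.21, adjusted p = 0.446).

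Rela (ENSMUSG00000024927.9, chr19:5687493-5698161, plus strand) encodes the subunit that activates transcription in the canonical dimer. It had 23.1, 30.0 and 21.6 CPM in Ctr 12 h and 45.7, 49.4 and 75.8 CPM in SE 12 h. At 36 h there were 24.5, 26.5 and 23.2 CPM in Ctr and 40.3, 38.3 and 37.0 CPM after SE. At 72 h the controls had 27.6, 24.0 and 37.5 CPM and the SE libraries 34.4, 42.0 and 45.1 CPM. The groups were apart at 12 and 36 h and overlapped at 72 h. The other SE libraries, with 50.7, 67.8 and 69.7 CPM at 6 h and 52.1, 44.0 and 59.3 CPM at 24 h, lay above all controls. The log2FC of Rela was 1.26 (s.e. 0.14) at 6 h, 1.19 (s.e. 0.18) at 12 h and 0.99 (s.e. 0.14) at 24 h, each called, and then 0.64 (s.e. 0.18) at 36 h and 0.46 (s.e. 0.19) at 72 h, neither called, although 7 of 22 alternatives called the value at 36 h, among them that without the libraries high in ganglion markers (0.67). The value at 72 h was called with Ctr 36 h in place of Ctr 72 h (0.71, adjusted p = 0.00516 in edgeR's test). Between 12 and 72 h the SE effect differed by -0.72 (s.e. 0.26), with an adjusted p of 0.0505 in edgeR's interaction test, just above the threshold, and 11 of 26 alternatives called it (adjusted p over all of them 0.0087 to 0.517).

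Relb (ENSMUSG00000002983.18, chr7:19339017-19363425, minus strand), whose product pairs with that of Nfkb2, was called at only 2 of the 5 times. Controls had 9.84, 6.57 and 7.54 CPM at 12 h, 10.2, 10.8 and 10.5 CPM at 36 h, and 12.7, 10.9 and 11.6 CPM at 72 h. The SE libraries had 12.9, 11 and 19.6 CPM at 12 h, 13.8, 13.2 and 18.1 CPM at 36 h, and 9.29, 11.9 and 19 CPM at 72 h. Within SE 12 h and SE 72 h, replicate 3 stood above the others. At 24 h, with 18.1, 20.3 and 27.3 CPM, all 3 libraries were above every control (log2FC 1.14, s.e. 0.21, adjusted p = 0.000249 in edgeR's test), although a factor for the number range of the labels ended this call (0.69, adjusted p = 0.0702). Relb was also a DEG at 12 h (0.86, s.e. 0.28, adjusted p = 0.0189 in edgeR's test), but 7 of 22 alternatives did not call it. Among them were those without SE 12 h replicate 3 (0.59) and without Ctr 12 h replicate 2 (0.78) or 3 (0.82). Another was that without the libraries high in dentate markers (0.43), which left 1 library in SE 12 h. Relb was not called at 6 h (0.56, s.e. 0.22, but called without SE 6 h replicate 1, at 0.79), where the libraries had 9.35, 17.2 and 17.3 CPM, at 36 h (0.52, s.e. 0.27) or at 72 h (0.18, s.e. 0.29). The value at 6 h was also called against the mean of Ctr 12 h and Ctr 36 h (0.68) and against Ctr 12 h alone (0.88).

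Nfkbia (ENSMUSG00000021025.9, chr12:55535332-55539432, minus strand), the gene of the main inhibitor of Rel dimers and a direct target of them, was called higher at 6, 12 and 24 h and not later. Controls had 25.8, 31.6 and 25.9 CPM at 12 h, 23.4, 29.8 and 31.0 CPM at 36 h, and 34.6, 16.5 and 42.0 CPM at 72 h. At 6 h after SE there were 50.7, 65.6 and 87.4 CPM, at 12 h 46.6, 43.3 and 65.7 CPM, and at 24 h 61.8, 59.9 and 65.1 CPM. All 9 of these libraries lay above all 9 controls. At 36 h, with 31.0, 38.1 and 41.0 CPM, and at 72 h, with 50.7, 33.5 and 27.5 CPM, SE and control libraries overlapped. The log2FC was 1.27 (s.e. 0.18) at 6 h, 0.90 (s.e. 0.24, adjusted p = 0.00548 in edgeR's test) at 12 h and 1.14 (s.e. 0.18) at 24 h, and 0.39 (s.e. 0.24) at 36 h and 0.36 (s.e. 0.25) at 72 h. Without the libraries high in dentate markers, which left 1 library in SE 12 h, the value at 12 h was 0.59, not called. The difference between its SE effects at 72 and 12 h was -0.53 (s.e. 0.34, adjusted p = 0.273 in edgeR's interaction test) and was not called. Without the libraries high in ganglion markers, which left 1 library in SE 72 h, this difference was -1.39 and called.

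Bcl3 (ENSMUSG00000053175.18, chr7:19541553-19557570, minus strand), an IκB family member that works in the nucleus with dimers of the Nfkb1 or Nfkb2 products, was close to 0 in controls and clearly expressed in every SE library. Controls had 0.379, 0.276 and 0.155 CPM at 12 h, 0.288, 0.313 and 0 CPM at 36 h, and 1.86, 0.853 and 0 CPM at 72 h, from at most 22 reads a library. After SE the values were 7.11, 7.25 and 12.1 CPM at 6 h, 7.06, 7.79 and 11.4 CPM at 12 h, and 22.5, 14.9 and 30.3 CPM at 24 h. They were 13.5, 8.75 and 15.2 CPM at 36 h and 8.88, 19.7 and 25.6 CPM at 72 h. The lowest SE library, at 7.06 CPM, was well above the highest control, at 1.86 CPM. The log2FC was 5.10 (s.e. 0.60, adjusted p = 2.92e-06 in edgeR's test) at 12 h, 5.80 (s.e. 0.61, adjusted p = 6.28e-07) at 36 h and 3.93 (s.e. 0.55, adjusted p = 2.15e-05) at 72 h, and 4.47 (s.e. 0.40) at 6 h and 5.80 (s.e. 0.38) at 24 h. Its mean in Ctr 72 h, 0.903 ± 0.929 CPM, was above the 0.2 ± 0.174 CPM of Ctr 36 h and the 0.27 ± 0.112 CPM of Ctr 12 h (SD, n = 3), by a log2FC of 2.37 (adjusted p = 0.0977) and 2.21 (adjusted p = 0.13) that edgeR did not call and DESeq2 did. From SE 12 h to SE 24 h Bcl3 rose further, by 1.39 (s.e. 0.42, adjusted p = 0.0441), the only member called at a step where 3.21% of all genes were called, but 11 of 20 alternatives, with values from 1.11 to 1.61 and adjusted p from 0.013 to 0.148 over all 20, did not call it. Among these were the fits without any 1 of the SE 12 h libraries (1.24, 1.32 and 1.61) and without SE 24 h replicate 1 (1.39) or 3 (1.11). Another was that without the libraries high in dentate markers (1.53), which left 1 library in SE 12 h.

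Tnfaip3 (ENSMUSG00000019850.12, chr10:18874201-18891405, minus strand) encodes A20, a ubiquitin-editing enzyme that shuts off TNF signalling and a textbook NF-κB target, and it was the one member without a call. Controls had 9.37, 5.46 and 8.7 CPM at 12 h, 13.7, 16.4 and 15.2 CPM at 36 h, and 10.5, 12.4 and 10.9 CPM at 72 h. The SE libraries had 10.3, 16.6 and 17.2 CPM at 6 h, 5.91, 9.12 and 9.72 CPM at 12 h, and 12.7, 10.2 and 14.9 CPM at 24 h. At 36 h they had 10.2, 6.94 and 10.9 CPM and at 72 h 8.52, 9.63 and 15.1 CPM. Only at 36 h were SE and control libraries apart, with SE lower. The log2FC there was -0.69 (s.e. 0.27, adjusted p = 0.0545 in edgeR's test), not called, and 6 of 22 alternatives called it lower, for example DESeq2 (-0.67, adjusted p = 0.0477) and the fit with a factor for the number range of the labels (-0.88, adjusted p = 0.00706). Without the libraries high in ganglion markers it was -0.81 (adjusted p = 0.0158). At 12 h it was 0.07 (s.e. 0.27), at 72 h -0.02 (s.e. 0.28), at 6 h 0.42 (s.e. 0.21) and at 24 h 0.19 (s.e. 0.22). Against Ctr 12 h alone the value at 6 h was 0.91 and called higher (adjusted p = 0.0153). The controls of 36 h were the highest of the control groups, with a log2FC of 0.95 (s.e. 0.27) against Ctr 12 h that did not pass adjustment (adjusted p = 1). In the comparison of Ctr 36 h with Ctr 12 h no gene of the table (0%) was called by edgeR, 650 had an unadjusted p under 0.05, and DESeq2 called 4.

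**Figure D3:**
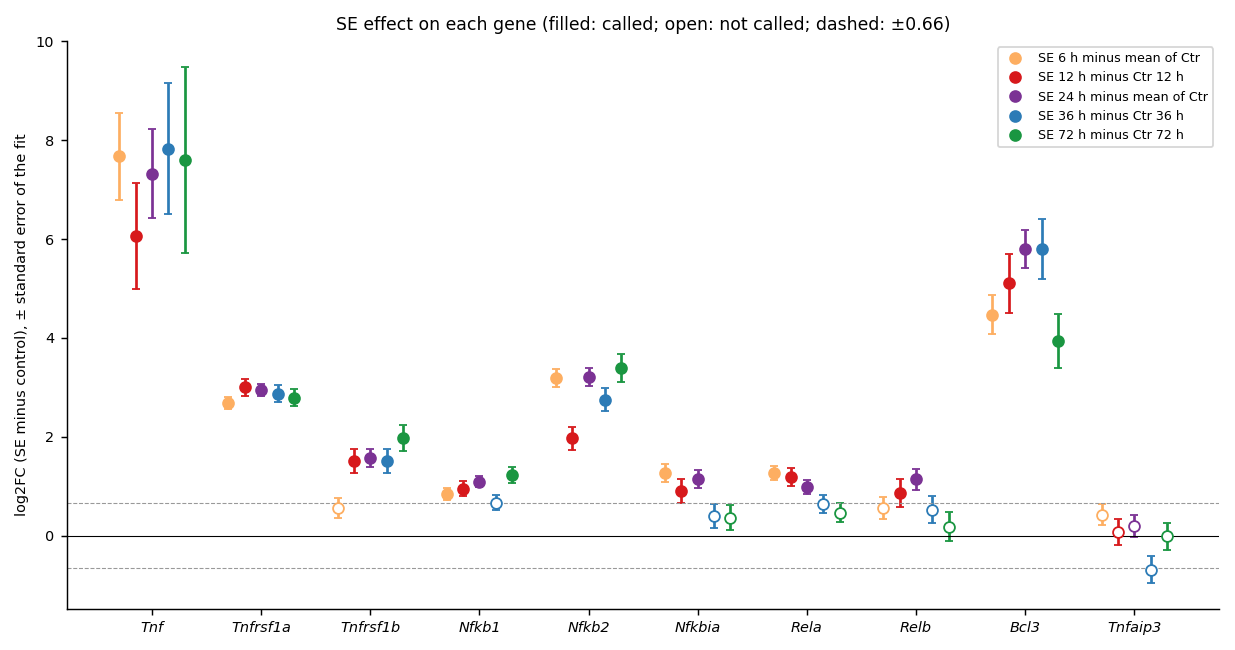
Log2FC between SE and Ctr for the 10 genes at 12, 36 and 72 h (time-matched controls) and at 6 and 24 h (mean of the 3 control groups); bars are standard errors from the edgeR fit, filled points were called, and dashed lines mark the threshold of 0.66 in both directions. Bcl3, Nfkb2, Tnfrsf1a and Tnf lie above it throughout, Nfkbia and Rela lie above it at 6, 12 and 24 h, and Tnfaip3 lies within the lines except at 36 h, where it is at -0.69 and not called.

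Of the steps between consecutive SE time points, those of Bcl3 from 12 to 24 h and of Tnfrsf1b from 36 to 72 h were the only ones called for the 10 genes. From 6 to 12 h (1.34% of all genes called) and from 24 to 36 h (0.529%) there was none. Tnfaip3 had a log2FC of -0.84 (s.e. 0.27, adjusted p = 0.0764) from 6 to 12 h, and it was called lower without SE 6 h replicate 1 (-1.03) and with a factor for the number range of the labels (-1.05). At an unadjusted p under 0.05 all genes called in these comparisons numbered 3722 and 3012 in edgeR's test. Among the control groups, the decrease of Nfkb2 from 12 to 72 h was the only member called, where 0.948% of all genes were called. Between Ctr 36 h and Ctr 72 h (1.93% of all genes called) no member was called by edgeR. The differences of the SE effect between 12 and 36 h (3.79% of all genes called) and between 36 and 72 h (5.37%) held no member either.

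The rest of the pathway was taken from 7 lists of 78 genes, of which 71 were tested. At 12 h, 31 of the 71 were higher and 2 lower after SE, where 13.9% and 11.4% of all genes were. At 36 h 30 were higher and 1 lower (12.7% and 8.93% of all genes), at 72 h 30 and 0 (15.2% and 4.18%), at 6 h 31 and 2 (15.8% and 6.2%), and at 24 h 36 and 3 (15% and 9.22%). The median log2FC over these genes was 0.59, 0.63, 0.89, 0.41 and 0.68 in that order.

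As a count, the 20 textbook NF-κB target genes tested, the longest list, held more of the calls than any other list. As a share this did not hold at each time. At 72 h 50% of the targets were called against 71.4% of the TNF family receptors. At 12 h the share was 80% both for the targets and for the other Rel and IκB genes. In the order 12, 36, 72, 6 and 24 h, 16, 15, 10, 16 and 18 of them were higher and none was lower. Their median log2FC was 3.47, 3.11 and 2.29 at the first 3 of these. Ccl2, the gene of a chemokine for monocytes, had 0.024 ± 0.0415 CPM (SD, n = 3) in Ctr 36 h and 12.0 ± 5.34 CPM in SE 36 h, a ratio of summed counts of 554 (exact 95% interval 99.1 to 21900, counting error only). Its highest mean was 30.4 ± 3.60 CPM at 24 h. Cxcl10, the gene of a chemokine for T cells that interferons also induce, was 224-fold higher at 72 h (exact 95% interval 40 to 8860, counting error only, against 1 control read) and reached its highest mean, 32.2 ± 14.8 CPM, at 36 h. Sele, the gene of an adhesion protein of activated endothelium, had no read in Ctr 12 h and was at least 46.2-fold higher in SE 12 h. By SE 72 h its level was 0.116 ± 0.0703 CPM, close to the 0.113 ± 0.195 CPM of Ctr 72 h, and its SE effect was smaller at 72 h than at 12 h (-6.79, s.e. 1.81, adjusted p = 0.0146 in edgeR's interaction test), a difference that was -2.12 and not called without Ctr 72 h replicate 1, and -8.07 and not called without the libraries high in dentate markers (adjusted p = 0.0797). Ccl5 was at least 7.80-fold higher at 72 h, with 1.11 ± 0.251 CPM.

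Of the 7 receptors of the TNF family besides the members, 4 were higher at 12 and 36 h and 5 at 72 h, and none was lower. These were 57.1%, 57.1% and 71.4% of the list, where 13.9%, 12.7% and 15.2% of all genes were higher. Tnfrsf12a, the receptor of TWEAK, had 2.08 ± 0.164 CPM in Ctr 12 h and 74.7 ± 16.3 CPM in SE 12 h (SD, n = 3), a log2FC of 5.20 (s.e. 0.37, adjusted p = 9.02e-09 in edgeR's test). It reached 99.0 ± 19.3 CPM at 24 h and was 24.8 ± 7.69 CPM at 72 h, where its SE effect was smaller than that at 12 h (difference -1.98, s.e. 0.56, adjusted p = 0.0161 in edgeR's interaction test, but not called without Ctr 72 h replicate 2, at -0.79, nor without the libraries high in ganglion markers, at -0.38, or in dentate markers, at -1.21). Ltbr, the lymphotoxin beta receptor of the non-canonical pathway, had a log2FC of 1.87 (s.e. 0.17) at 12 h, 1.56 at 36 h and 1.89 (s.e. 0.18) at 72 h. Tnfrsf11a, the receptor of RANKL, rose by 1.35, 1.62 and 1.70 at these times. Tnfrsf14 was not called at 12 or 36 h and was higher at 72 h (3.55, s.e. 0.76), with 0.506 CPM (6 reads) in Ctr 72 h replicate 1 and no read in the other 2 controls of 72 h. Without that library the log2FC was 7.82, and without Ctr 72 h replicate 2 it was 2.36.
Of the 4 ligands tested, Tnfsf11, which encodes RANKL, had no read in any control and was at least 17.3-fold higher at 12 h, 17.2-fold at 36 h and 5.67-fold at 72 h, and at least 57.1-fold at 6 h and 74.1-fold at 24 h. Tnfsf13b, which encodes the B cell survival factor BAFF, fell at 12 h (log2FC -1.40, s.e. 0.38, adjusted p = 0.00643 in edgeR's test), from 2.7 ± 0.224 CPM in Ctr 12 h to 1.02 ± 0.193 CPM, and had 0.75 (s.e. 0.39) and 0.78 (s.e. 0.41) at 36 and 72 h, not called. At 72 h Tnfsf13b was called higher without Ctr 72 h replicate 3 (1.21) and with Ctr 36 h in place of Ctr 72 h (1.34). Its level in Ctr 36 h was 1.16 ± 0.196 CPM, below that of Ctr 12 h.

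Among the 17 adaptors and kinases below the receptors, 4, 7 and 8 were higher at 12, 36 and 72 h, and none was lower. These were 23.5%, 41.2% and 47.1% of the list, where 13.9%, 12.7% and 15.2% of all genes were higher. Casp8, the initiator caspase of death receptor signalling, had a log2FC of 1.49 (s.e. 0.25) at 12 h, 2.25 (s.e. 0.26) at 36 h and 2.99 (s.e. 0.29) at 72 h. Cflar, which encodes the inhibitor of that caspase, had log2FC values of 1.74, 1.66 and 1.12 at the same times. Birc3, a ubiquitin ligase gene and NF-κB target, was highest at 6 h, with 11.5 ± 1.66 CPM (SD, n = 3), and Fadd, the adaptor that binds caspase 8, was called at 36 h (1.65, s.e. 0.35) and 72 h (1.44, s.e. 0.37) and not at 12 h. The 9 genes of the IKK and linear ubiquitin complexes had 1, 0 and 2 called higher at the same times, near the share of all genes. Map3k14, the kinase that starts the non-canonical pathway, rose by 1.15 (s.e. 0.23) at 12 h and 0.81 (s.e. 0.25) at 72 h. The call at 72 h was lost in 11 of 22 alternatives, among them those without Ctr 72 h replicate 3 (0.49) or SE 72 h replicate 1 (0.73). Ikbke, a kinase related to IKK, rose by 1.17 (s.e. 0.36) at 72 h, a call lost in 5 of 22 alternatives. Among them were those without Ctr 72 h replicate 2 (0.99) or SE 72 h replicate 3 (0.90), while without Ctr 72 h replicate 1 the value was 1.81.

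All 5 of the other Rel and IκB genes were measured, of which 4, 2 and 2 were higher at 12, 36 and 72 h. These were 80%, 40% and 40% of the list, where 13.9%, 12.7% and 15.2% of all genes were higher. Rel, which encodes c-Rel, had 3.76 ± 0.206 CPM in Ctr 12 h and 9.59 ± 1.85 CPM in SE 12 h (SD, n = 3), and its log2FC was 1.35 (s.e. 0.18), 1.05 (s.e. 0.18) and 1.18 (s.e. 0.20) at 12, 36 and 72 h. Nfkbie, an IκB gene, was called at all 3 times, with 0.94 (s.e. 0.34), 1.92 (s.e. 0.35) and 1.52 (s.e. 0.37). The call at 12 h was lost in 12 of 21 alternatives. Among them were those without Ctr 12 h replicate 2 (0.78) or 3 (1.05) or SE 12 h replicate 2 (0.79) or 3 (0.91). Nfkbiz and Nfkbid, which encode nuclear IκB proteins, were called at 12 h (1.43, s.e. 0.39, and 1.25, s.e. 0.29) and not at 36 or 72 h. Their log2FC at 72 h was 0.82 and -0.75. Without Ctr 72 h replicate 1, Nfkbiz was called higher (1.34) and Nfkbid lower (-1.15) at 72 h. Nfkbid was also called lower there without Ctr 72 h replicate 3 (-0.94). Nfkbib, the gene of IκB beta, was not called, with 0.51 (s.e. 0.15), 0.27 (s.e. 0.16) and -0.19 (s.e. 0.16).
Of the 9 further negative feedback genes, 1 was higher and 1 lower at 12 and at 36 h, and 2 were higher at 72 h. This was 22.2% of the list at each time, near the 25.2%, 21.6% and 19.4% of all genes called at 12, 36 and 72 h. The gene that fell was Cyld, a deubiquitinase that counters NF-κB signalling, from 133 ± 12.2 CPM in Ctr 12 h to 65.5 ± 10.8 CPM in SE 12 h (SD, n = 3). Its log2FC was -1.02 (s.e. 0.13, adjusted p = 5.93e-06 in edgeR's test) at 12 h, -0.94 (s.e. 0.13) at 36 h and -0.43 (s.e. 0.13), not called, at 72 h. Zc3h12a, which encodes the RNase regnase that cuts cytokine mRNA, rose by 1.64 (s.e. 0.40) at 12 h and 3.57 (s.e. 0.54) at 72 h. Usp18, a feedback gene of interferon signalling, was called at 36 h (3.69, s.e. 0.79) and 72 h (2.56, s.e. 0.82). The call at 72 h was lost in 7 of 22 alternatives, among them those without Ctr 72 h replicate 1 (2.13) or 2 (2.75) or SE 72 h replicate 1 (2.41).
Without the libraries high in ganglion markers, the calls at 72 h of Map3k14 (0.93), Usp18 (2.29), Fadd (1.25), Tnfrsf14 (2.45), Ikbke (1.39) and Tnfsf11 were lost. Only 1 library was then left in SE 72 h. Without those high in dentate markers, the calls at 12 h of Nfkbie (1.29), Nfkbiz (1.17), Zc3h12a (0.79) and Tnfsf11 were lost, with 1 library left in SE 12 h. So were those at 72 h of Map3k14 (0.73) and Usp18 (2.42).

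**Figure D4:**
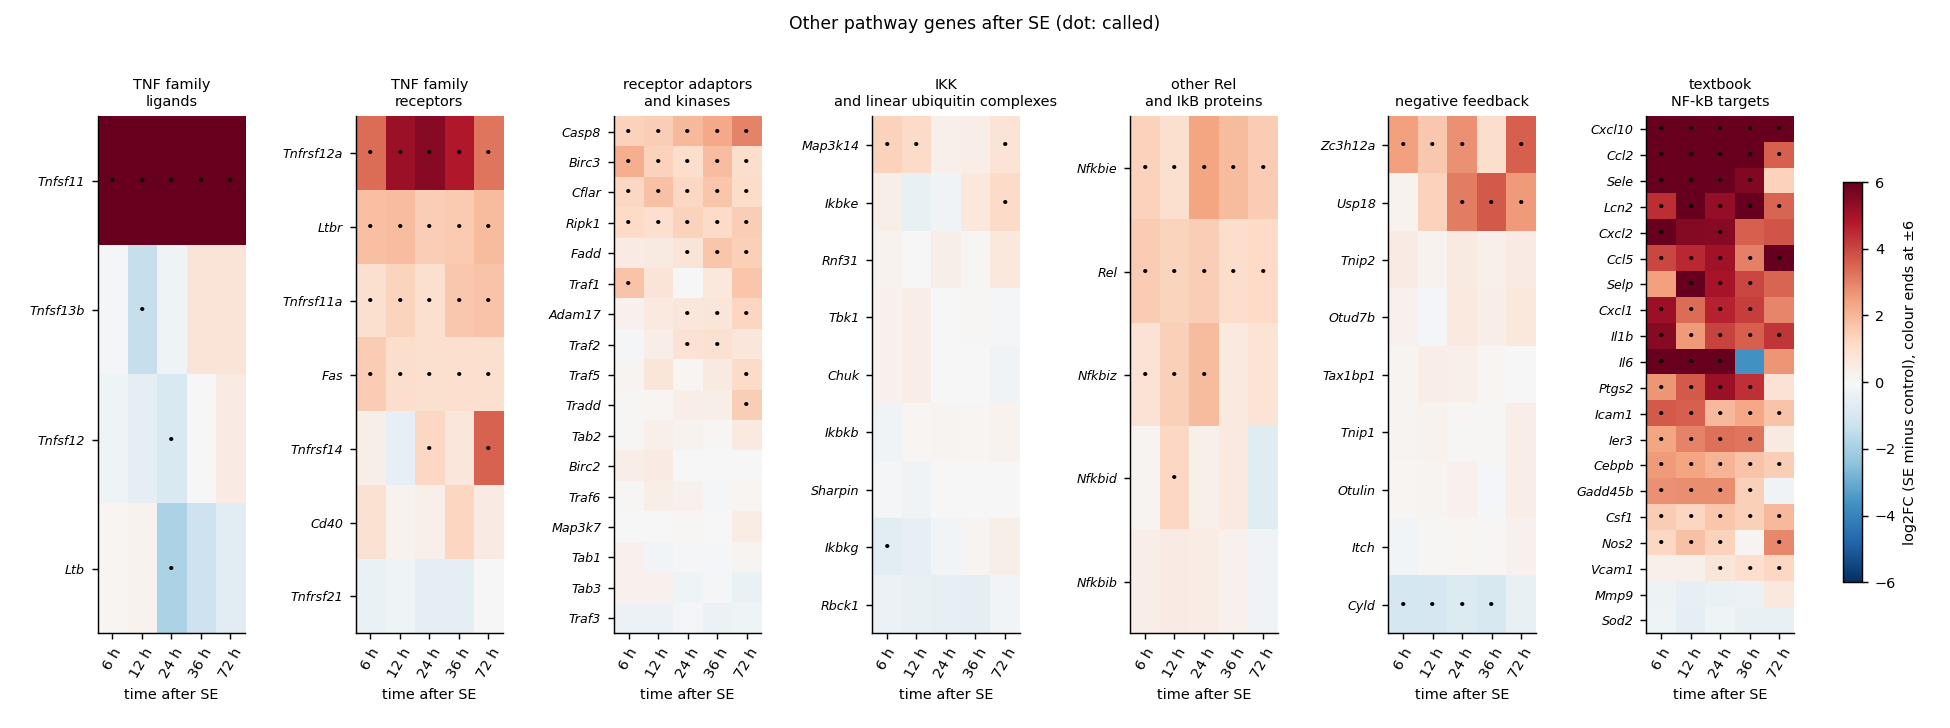
Log2FC between SE and Ctr of the 71 pathway genes tested, grouped by list, in 5 columns for 6, 12, 24, 36 and 72 h, with colour for log2FC (ending at 6 in either direction) and a dot where the gene was called. Dots fill most of the target gene rows and few of those of the IKK and linear ubiquitin complexes.

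Per kilobase of transcript, the order of the members in the 9 controls was Nfkbia with 18.4 ± 4.58 CPM per kb (SD, n = 9), Rela with 9.73 ± 1.8, Tnfrsf1a with 4.74 ± 1.2, Nfkb1 with 4.02 ± 0.587, Relb with 2.97 ± 0.564, Tnfaip3 with 1.65 ± 0.494, Tnfrsf1b with 1.2 ± 0.394, Nfkb2 with 0.36 ± 0.173, Bcl3 with 0.227 ± 0.289 and Tnf with 0.00262 ± 0.00786. Tnfrsf1a and Nfkb1, Tnfaip3 and Tnfrsf1b, and Nfkb2 and Bcl3 were within their spread of each other. In the 15 SE libraries Tnfrsf1a led with 34.0 ± 4.9 CPM per kb (SD, n = 15), within the spread of Nfkbia with 32.4 ± 10.4. Rela followed with 18.4 ± 4.66, then Nfkb1 with 7.78 ± 1.15, Bcl3 with 7.01 ± 3.63, Relb with 4.68 ± 1.44, Tnfrsf1b with 3.39 ± 1.61, Nfkb2 with 2.44 ± 0.606, Tnfaip3 with 1.62 ± 0.492 and Tnf with 1.05 ± 0.559. These levels pool several times, and the order of the means differed between them. Nfkbia had a higher mean than Tnfrsf1a at 6 h (43.1 against 30.1) and 24 h (39.5 against 36.1) and a lower one at 36 h (23.3 against 31.0) and 72 h (23.6 against 38.7). Bcl3 and Nfkb1, and Tnfrsf1b and Relb, were among the other pairs that changed places after SE, as Nfkb1 and Relb, and Nfkb2 and Bcl3, did in the controls. The length was that of the canonical transcript. With the length of all exons joined, Nfkbia, with 26.4 CPM per kb, stood above Tnfrsf1a, with 23.5, in the SE libraries, followed by Rela with 15.3, Tnfrsf1b with 3.36, Relb with 3.12, Nfkb1 with 2.85 and Bcl3 with 2.7. In controls Relb, with 1.98, then passed Nfkb1, with 1.47, so the order depends on that choice.

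Over the 24 libraries, the genes whose log2 CPM was most like that of a member are given with Pearson's r as a description, since the libraries share the step from Ctr to SE, and with no test. For Tnf they were Sbno2 (0.95) and the chemokine genes Ccl4 and Ccl3 (0.94 each). For Tnfrsf1a they were Pros1 and Plek (0.98 each) and Cnn3 (0.97), and Plek was also among those of Bcl3 (0.96), with Mvp (0.97) and Lilrb4a (0.96). Tnfrsf1b was closest to the Fc receptor genes Fcer1g (0.97) and Fcgr2b (0.96) and to Lcp2 (0.95), all of them genes of myeloid cells. Nfkb2 was closest to Slc15a3 (0.98), Nfkb1 to Flnc and Ppard (0.95 each), Rela to Stk40 (0.95) and Nfkbia to Snhg1 (0.91). Relb (Fermt2, 0.87) and Tnfaip3 (Inhbb, 0.80) had no gene as close. Between members, r was highest for Tnfrsf1a and Bcl3 (0.95) and for Nfkb1 and Nfkb2 (0.94), and lay between -0.02 and 0.46 for Tnfaip3 with any other member.

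Markers of several cell types moved with these genes, and their part in the results was not tested. Of the 9 microglia markers, 5 were lower at 6 h and 2 at 12 h, and none was higher at either. At 24 h 4 were higher and 1 lower, at 36 h 5 were higher and 1 lower, and at 72 h all 9 were higher. The most abundant was Csf1r, and P2ry12, a gene of resting microglia, had log2FC values of -3.69, -2.12 and 0.69 at 12, 36 and 72 h. At 6 and 12 h the mean of the summed microglia markers was below those of the controls. This sum mixes markers with different courses. At 12 h P2ry12 and Tmem119 (-1.90) were called lower, while Cx3cr1 (-0.15) and C1qa (0.53) were not called. Of the 7 astrocyte markers, Gfap (2.57) alone was called at 6 h. At 12 h 2 of them were higher, among them Gfap (3.63), and 1, Gja1 (-1.04), was lower. Of the 6 endothelial markers, 4 were called higher at both times. The 7 astrocyte markers summed to 5040 ± 484 CPM in Ctr 72 h and 13500 ± 820 CPM in SE 72 h (SD, n = 3), where Gfap, the most abundant, had a log2FC of 5.0. The list did not move as one, with 3 of 7 higher and 4 lower at 36 h, 2 higher and 4 lower at 24 h, and 3 higher and none lower at 72 h. Those lower at 36 h were Slc1a2 (-1.30), Slc1a3 (-0.72), Aldoc (-1.53) and Gja1 (-1.32). The sum of the 6 endothelial markers was 202 ± 25.7 CPM in Ctr 12 h and 378 ± 85.0 CPM in SE 12 h. At 12 h 4 of 6 were called higher, and Tek (-0.52) and Cldn5 (0.50) were not called. At 6 h 4 were higher and 1, Tek (-0.75), was lower. At 24 h 4 were higher, and at 36 and 72 h 2 each. Of the 3 leukocyte markers tested, S100a8, S100a9 and Ccr2, the sum lay between 0.157 and 10.7 CPM in the group means, and it was 5.95 ± 6.96 CPM in Ctr 72 h and 10.7 ± 10.0 CPM in SE 72 h, with wide spread. Ccr2 was called higher at 6 h (3.22), 36 h (5.86) and 72 h (3.43) and S100a8 at 12 h (7.07), with adjusted p from 0.0134 to 0.0401 in edgeR's test, and none of the 3 at 24 h. No read of Ccr2 was seen in Ctr 36 h and none of S100a8 in Ctr 12 h, so 5.86 and 7.07 are not measured folds. The 6 neuron markers summed to 7020 ± 833 CPM in Ctr 72 h and 4870 ± 648 CPM in SE 72 h, with 2 of 6 called lower and a median log2FC of -0.40.

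**Figure D5:**
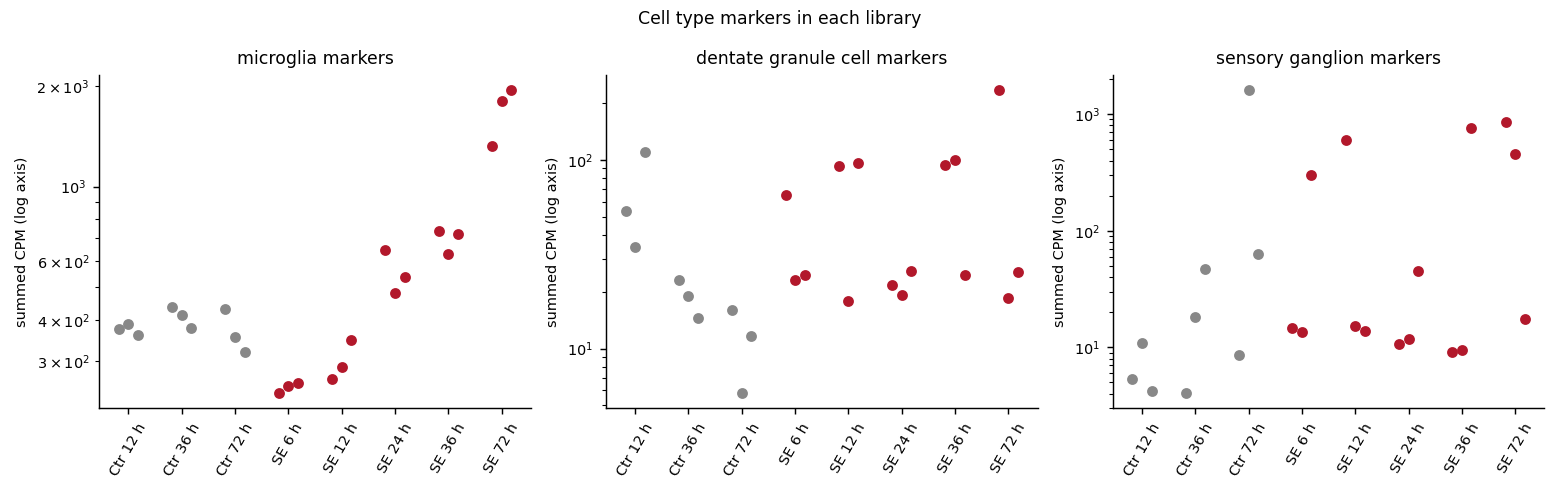
Summed CPM of the microglia, dentate granule cell and sensory ganglion markers in each library, by group and hours, on log axes; each point is 1 library (grey Ctr, red SE). Microglia markers are lowest at 6 h and highest at 72 h, and single libraries stand out in the ganglion and dentate granule cell panels.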

How the data were processed

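PolyA RNA of 24 CA1 libraries, 3 in each of 8 groups, was sequenced. The deposited values were raw counts per gene from HTSeq 0.13.5, made by the authors without regard to strand from reads trimmed with Trim Galore 0.6.6 and aligned with STAR 2.7.8a to GRCm39 with the GENCODE M26 genes. The authors had merged lanes. Because strand was ignored, reads of overlapping genes on opposite strands cannot be told apart. Sequence windows came from RefSeq tables of GRCm38.p6, matched by symbol.

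Groups followed the sample labels. Counts were filtered by expression (18153 of 18647 genes kept), scaled by TMM and tested with edgeR 4.0.16 in R 4.3.3 (quasi-likelihood test) over all libraries, with terms for group and for 1 RUVr factor (unwanted variation, from residuals) and Benjamini-Hochberg adjustment over all genes tested. The RUVr factor was 0.8026 in Ctr 72 h replicate 2, -0.3813 in replicate 1 and -0.3644 in replicate 3. In all other libraries it lay between -0.1014 and 0.1316. Log2 CPM used a prior count of 2. Gene symbols were found for 18552 of the 18647 gene IDs. The procedure was tested on simulated data. Library totals of 2663936 to 30133731 counts limit precision for rare transcripts such as Tnf, and exact intervals and floors of 3 counts cover counting error only.

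The members and all lists were chosen with earlier results of these data known. The text names every member, in each of the 7 pathway lists up to 4 called genes with the largest absolute log2FC at 12, 36 or 72 h whose groups did not overlap, all of the other Rel and IκB genes, and for each member the genes most alike over the libraries (up to 3, mean log2 CPM not under 1). Genes outside the rule are Psd, which overlaps Nfkb2, the cell markers, and genes whose SE effect differed between times. Lta, Tnfsf14, Cd40lg, Tnip3, Ccl20 and Csf2 of the lists, the microglia marker Fcrls and the leukocyte markers Ly6c2, Cd3e, Ms4a4b and Plac8 were not analysed here, and Tnfrsf13c did not pass the filter. Of the 5 oligodendrocyte markers, none was called at 12 or 36 h, 1 was higher at 72 h and 2 at 6 and 24 h, with sums of 3460 ± 1010 CPM in Ctr 72 h and 4410 ± 1920 CPM in SE 72 h (SD, n = 3).

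Alternatives were DESeq2 1.42.0, limma-voom (limma 3.58.1), other scalings, filters and thresholds, other control groups, no RUVr factor, a ganglion marker score in its place, the compared groups only, thinned counts, a replicate block, a factor for the 3 ranges of label numbers (92 to 104, 109 to 122, 162 to 169; assumed technical) and leaving out each library in turn. Leaving out the libraries with over 100 CPM of ganglion markers or over 80 CPM of dentate granule cell markers was chosen after seeing the data.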

Additional observations from a re-analysis of the deposited data

Results flagged for a closer look

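The effect of SE (the log2FC against the time-matched controls) differed between 12 and 72 h for 24 of the 71 pathway genes (33.8%, against 22.2% of all genes) and 1 member in edgeR's interaction test over all genes. It differed between 36 and 72 h for 4 of the 71 (5.63%, against 5.37%) and between 12 and 36 h for 2 (2.82%, against 3.79%). The last 2 counts were thus near the share of all genes. Of the pathway genes and members called, those named in the text, 11 in all, are listed for that difference. For Tnfsf13b, which was lower after SE at 12 h (-1.40) and not called at 36 or 72 h (0.75 and 0.78), the log2FC was higher at 36 h than at 12 h by 2.16 (s.e. 0.54, adjusted p = 0.0334) and higher at 72 h than at 12 h by 2.18 (s.e. 0.56, adjusted p = 0.00899). The effect on Zc3h12a was larger at 72 h than at 36 h by 2.51 (s.e. 0.69, adjusted p = 0.0393) and than at 12 h by 1.93 (s.e. 0.68, adjusted p = 0.049).

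The other differences listed lay between 12 and 72 h. The SE effect was larger at 72 h for Tnfrsf14 (4.05, s.e. 0.96, adjusted p = 0.00586), Ikbke (1.61, s.e. 0.50, adjusted p = 0.0267), Casp8 (1.5, s.e. 0.39, adjusted p = 0.0097) and Nfkb2 (1.42, s.e. 0.38, adjusted p = 0.0122). For Cyld, which was lower after SE, the difference was 0.59 (s.e. 0.18, adjusted p = 0.0251). The difference was negative, with a lower log2FC at 72 h, for Sele (-6.79, s.e. 1.81, adjusted p = 0.0146), Nfkbid (-2.0, s.e. 0.42, adjusted p = 0.00253), Tnfrsf12a (-1.98, s.e. 0.56, adjusted p = 0.0161) and Nfkbib (-0.70, s.e. 0.22, adjusted p = 0.0308). Leaving out 1 library ended several of these calls. Without Ctr 72 h replicate 2 the difference between 12 and 72 h was 0.59 for Casp8, -0.79 for Tnfrsf12a, 0.47 for Nfkb2, 1.42 for Ikbke, 0.52 for Cyld and 1.51 for Zc3h12a, and without Ctr 72 h replicate 1 it was -2.12 for Sele, none of them called. With Ctr 72 h replicate 1 left out, the difference rose to 2.5 for Casp8, 2.42 for Nfkb2 and 8.3 for Tnfrsf14. Over the 12 libraries left out in turn, the call between 12 and 72 h was lost 8 times for Zc3h12a, 6 times each for Cyld and Nfkbib and 4 times for Ikbke, the call of Tnfsf13b between 12 and 36 h 10 times and that of Zc3h12a between 36 and 72 h 8 times. Without the libraries high in ganglion markers, the listed calls were lost for all but Sele and Cyld, with differences between 12 and 72 h of 0.78 for Casp8, -0.38 for Tnfrsf12a, 0.69 for Nfkb2, 2.71 for Tnfrsf14, -1.58 for Nfkbid, -0.74 for Nfkbib, 1.68 for Tnfsf13b, 1.58 for Ikbke and 0.93 for Zc3h12a. Leaving out the libraries high in dentate markers ended the calls between 12 and 72 h of Tnfrsf12a (-1.21), Sele (-8.07), Nfkbib (-0.55) and Ikbke (1.77). It also ended that between 36 and 72 h of Zc3h12a (2.37), and Cflar was then called (-1.04). The ganglion set left 1 library in SE 72 h, and the dentate set 1 library each in SE 12 h and SE 36 h. At the comparison of 72 with 12 h, 22.2% of all genes were called. The controls of 72 h all carry label numbers in 1 range that holds none of the SE 72 h libraries, so that this range and the group cannot be told apart at 72 h. The same holds at 24 h, since the range of all 3 SE 24 h libraries holds no control. Single outlying values were not tested, since the groups hold 3 libraries each.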

How the results depend on the processing

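Of 1237 member values from the SE and Ctr comparisons under all alternatives, 1187 stayed on the same side of the threshold, 15 lost a call and 35 gained one, none with a change of direction. In 15 uncalled values the sign differed, 12 of them for Tnfaip3. Of 2908 such values for the other named pathway genes, 2781 stayed on the same side, 113 lost and 14 gained a call, and of 1809 differences of the SE effect 1691, 93 and 25 did so. The causes were not tested, except that a filter of at least 10 counts in every library and thinning to the smallest library left only 7 and 9 members to test.

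A minimum absolute log2FC of 1 gave 2916 in place of 4583 called genes at 12 h, 2576 in place of 3989 at 6 h and 2918 in place of 4387 at 24 h, and no minimum gave 6985, 7241 and 7506. The filter of 10 counts gave 2492 genes at 36 h in place of 3930, 1898 at 72 h in place of 3521, and 2189 and 2502 at 6 and 24 h. It gave 13 called pathway genes at 12 h in place of 33, 14 at 36 h in place of 31, 12 at 72 h in place of 30, 12 at 6 h in place of 33 and 16 at 24 h in place of 39, with 3 called members at 72 h in place of 6 and 4 at 6 h in place of 7. With compared groups only, 1520 genes and 15 pathway genes were called at 72 h. A factor for the number range of the labels gave 16 pathway genes at 72 h. Without the libraries high in ganglion markers 2267 genes were called at 72 h, and 8 in place of 5 members at 36 h.

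The single member called from SE 12 h to SE 24 h (Bcl3) became 0 without the RUVr factor, with the filter of 10 counts, the number range, the ganglion score, thinned counts or the compared groups only, and without the libraries high in dentate markers. That from SE 36 h to SE 72 h (Tnfrsf1b) became 0 with the ganglion score, the compared groups only and without the dentate libraries. That between Ctr 12 h and Ctr 72 h (Nfkb2) became 0 without the RUVr factor, with limma-voom, the filter of 10 counts, the number range, the ganglion score, thinned counts and the compared groups only, and without either set of libraries, while DESeq2 called 2. The single difference of the SE effect between 12 and 72 h (Nfkb2) became 0 without the RUVr factor, with limma-voom, the ganglion score, thinned counts and the compared groups only. When the libraries high in ganglion markers were left out, Nfkb2 was lost (0.69) and Nfkbia gained (-1.39), so that the count stayed at 1. It became 2 with DESeq2, its size factors, library size only or the replicate block. Between Ctr 36 h and Ctr 72 h DESeq2 called 1 member, Bcl3 (0 by edgeR), and from SE 6 h to SE 12 h the number range gave 1, Tnfaip3 (0 before). With each library left out in turn, members called ranged from 0 to 1 for these steps, for both control comparisons with Ctr 72 h and for the SE effect between 36 and 72 h, and from 1 to 2 for that between 12 and 72 h.

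Replicate numbers do not pair the libraries. Deviations of same-numbered SE and Ctr libraries from their group means correlated with r of 0.0821, 0.181 and -0.00172 at 12 h, 0.157, 0.0315 and 0.172 at 36 h, and -0.201, 0.0627 and 0.162 at 72 h. With the number as a block, Tnfaip3 was called lower at 36 h (-0.70, adjusted p = 0.0325), Nfkb1 was called higher at 36 h (0.66, adjusted p = 0.00185), and the Rela difference between 12 and 72 h was called (adjusted p = 0.0357), and no other call of a member changed. Scaling by library size alone moved the median log2FC of all genes at 36 h from 0.00 to 0.13 and the share of calls that were higher from 58.8% to 70%. It moved that share from 34.3% to 48.1% for Ctr 72 h against Ctr 12 h, from 35.6% to 55.5% against Ctr 36 h and from 34.2% to 44.8% for SE 12 h against SE 6 h, and among differences of the SE effect from 57.8% to 70.9% (12 to 36 h) and from 73.4% to 55.1% (36 to 72 h). The low totals of Ctr 72 h limit what can be said of rare transcripts there.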
